A study of Mus musculus with 8 samples.

Results

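The genes described here encode TRIM ubiquitin ligases linked to antiviral defence and proteins of the nuclear bodies built by Pml. They were picked out of the count tables by symbol, from a list drawn up with earlier results of these data known: Trim12c, Trim14, Trim21, Trim25, Trim26, Trim56, Trim28, Pml and Sp100, which are 9 of the 23304 gene symbols counted. All 9 symbols were present in the 8 count tables, and 8 of them had enough reads to be tested. Trim14 did not.

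TRIM proteins carry a RING finger, B-box and coiled-coil domains, and most attach ubiquitin to other proteins. Several are themselves induced by interferon, which signals through the transcription factor ISGF3, which contains Stat2 and Irf9, to promoters with an interferon-stimulated response element. Pml, also a TRIM protein, assembles nuclear bodies in which Sp100 and Daxx reside. Trim28, by contrast, is a widely expressed corepressor that KRAB zinc finger proteins bring to retroelements.

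RNA was sequenced from NIH3T3 cells, an immortalised mouse fibroblast line labelled as Swiss albino in strain. The labels give 4 groups of 2 libraries each: WT cells untreated at 0 h, WT cells given IFN-β (interferon-beta, mouse, recombinant, 100 units/ml) for 2 h, and Zmynd11 CRISPR knockout (KO) cells at the same 2 times and treatments. All were grown with donor bovine serum. The extraction protocol speaks of MEFs (mouse embryonic fibroblasts), whereas every other label names NIH3T3, and this was not resolved. The sources used here do not give the edited position, the number of clones or separate cultures within a group. The p-values therefore reflect the spread of these libraries alone, and that spread may be technical.

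Gene reads came to 13671013 to 21299120 per library. Replicates of a group differed by more than counting noise, with a chi-square per degree of freedom of 2.95 to 9.21 over genes. Fibroblast markers summed to 7129 to 31669 CPM (the reads of a gene relative to the TMM-scaled total of its library, times a fixed factor) and those of endothelium to 1.17 to 3.07. Leukocyte markers, 1 of 5 of them at 0 throughout, summed to 12.3 to 12.9 CPM in WT 0 h and 17.2 to 23.0 in KO 0 h, and to 13.6 to 14.1 in WT 2 h and 9.10 to 18.1 in KO 2 h. Epithelial markers summed to 3.22 to 3.83 CPM in WT 0 h and 4.91 to 5.01 in KO 0 h, and to 2.48 to 3.08 in the 2 h groups. Endothelial markers summed to 2.16 to 2.20 CPM in WT 0 h and 2.59 to 3.07 in KO 0 h, and to 1.17 to 1.40 in WT 2 h and 1.65 to 1.96 in KO 2 h. Fibroblast markers summed to 31631 to 31669 CPM in WT 0 h and 28119 to 29777 in KO 0 h. The leukocyte, epithelial and endothelial sums were thus higher in KO 0 h than in WT 0 h, and the fibroblast sum was lower. Single markers did not all follow the sums. Of the fibroblast list Col1a1, Col1a2, Col3a1, Vim and Pdgfrb were lower in KO 0 h. Pdgfra was higher, at 248 CPM against 214, and Fap had 0 or 1 read in these libraries. The epithelial sum was mostly Cdh1, at 4.77 CPM in KO 0 h against 3.46 in WT 0 h, with Krt18 at 0 or 1 read. The part of these lists in the results was not tested. The libraries labelled WT 2 h and KO 2 h held fibroblast marker sums of 7129 to 7656 CPM, against 28119 to 31669 in those labelled WT 0 h and KO 0 h. The fall was unequal between markers. Under the WT label Col1a1 went from 10526 to 928 CPM, Vim from 6802 to 4068 and Pdgfrb from 110 to 77.3. Its cause was not tested, and in bulk RNA fewer cells of a type and less RNA per cell cannot be told apart.

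The targeted gene did not follow the genotype labels. Zmynd11 had 123 and 120 CPM under the label WT 0 h, and 137 and 131 under KO 0 h. Under the label WT 2 h it had 3.18 and 3.61 CPM, and under KO 2 h 3.31 and 4.69. The level of Zmynd11 thus separated the time labels, not the genotype labels. Were the names KO 0 h and WT 2 h swapped, Zmynd11 would be low in all KO libraries, and the differences given here as KO against WT at one time would be differences between treated and untreated cells, while those given as 2 h against 0 h would be differences between genotypes. The files do not settle which labels hold, and the labels were kept as given. Every direction below is a direction between labels, and any difference between libraries labelled 2 h and 0 h cannot be told apart from the difference in Zmynd11.

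Between the labelled genotypes 7 of the 8 tested genes were higher in KO, both at 0 h and at 2 h, and Trim28 was not called. Trim21 differed most, by 14.1-fold at 0 h and 11.0-fold at 2 h. The differences between 2 h and 0 h within a genotype label reached 3.04-fold, for Trim12c under the WT label, and they divided the genes: Trim12c, Trim21, Trim26 and Trim56 were higher at 2 h under both genotype labels, Trim28 was lower under both, and Sp100 was higher under the WT label and lower under the KO label. Trim25 and Pml were called higher at 2 h under the KO label alone, though Pml was called under the WT label with several other settings. The difference between the labels did not pass its own test for Trim25 under any setting tried. For Pml it passed only with no filter on low counts.

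These counts were read against all 12807 genes tested with edgeR's quasi-likelihood test, in 1 fit of the 8 libraries, at a Benjamini-Hochberg adjusted p below 0.05. For KO 0 h against WT 0 h, 2.65% of all genes were called higher and 1.27% lower. For KO 2 h against WT 2 h, 1.59% were called higher and 1 gene of the 12807 was called lower. A list without a lower gene is therefore usual in that comparison. The median log2 fold change of the 8 genes was 1.57 and 1.22 in these comparisons, where that of all genes was 0.01 and -0.01. For WT 2 h against WT 0 h, 5 of the 8 were called higher and 1 lower, against 30.1% and 31.1% of all genes, and for KO 2 h against KO 0 h 6 were higher and 2 lower, against 30.0% and 31.2%. In the 2 h against 0 h comparisons, being called is therefore common among all genes. The comparisons share groups, so their counts are not independent.

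**Figure D1:**
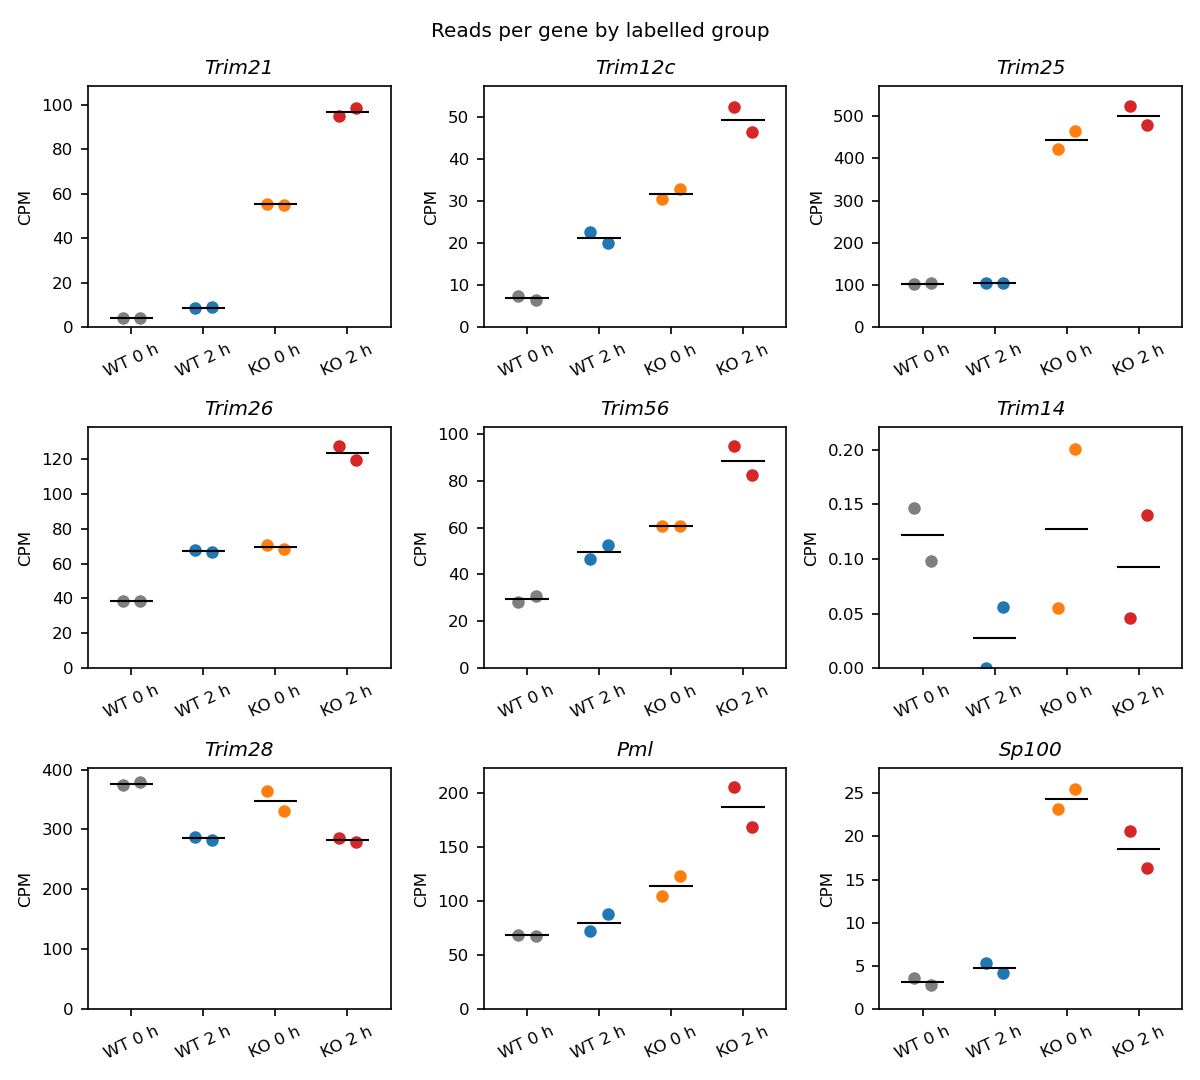
CPM of the 9 genes (vertical axes, linear from 0) in the 4 labelled groups; each point is a library and each bar the mean of 2. Trim21, Trim25 and Sp100 are far higher in both KO groups, Trim28 lies between 279 and 378 CPM in all libraries, and Trim14 stays at or under 0.200 CPM.

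Trim21 encodes a cytosolic receptor for antibodies that coats captured viruses with ubiquitin. It stood at 3.91 and 3.88 CPM in the libraries labelled WT 0 h, at 8.74 and 8.89 in WT 2 h, at 55.3 and 55.1 in KO 0 h and at 95.1 and 98.6 in KO 2 h. The 4 groups did not overlap, and the order WT 0 h, WT 2 h, KO 0 h, KO 2 h had each step called. The log2 fold change of KO over WT was 3.82 at 0 h (SE 0.12, edgeR adjusted p = 8.82e-17) and at 2 h 3.46 (SE 0.11, edgeR adjusted p = 9.06e-17). For KO 0 h over WT 2 h, its neighbour in level, it was 2.65 (SE 0.11, edgeR adjusted p = 3.11e-15). From 0 h to 2 h Trim21 rose by 1.18 under the WT label (SE 0.14, edgeR adjusted p = 2.40e-07) and by 0.81 under the KO label (SE 0.09, edgeR adjusted p = 6.39e-08).

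Trim12c is a mouse relative of the retrovirus restriction factor Trim5 and lies with other Trim genes on chromosome 7. It stood at 7.48 and 6.54 CPM in the libraries labelled WT 0 h, at 22.7 and 20.0 in WT 2 h, at 30.5 and 32.8 in KO 0 h and at 52.4 and 46.4 in KO 2 h. The groups were again in the order WT 0 h, WT 2 h, KO 0 h, KO 2 h without overlap and with each step called. The difference between KO and WT labels was 2.17 on the log2 scale at 0 h (SE 0.13, edgeR adjusted p = 2.06e-11) and 1.21 at 2 h (SE 0.12, edgeR adjusted p = 7.20e-08). From 0 h to 2 h it rose by 1.61 under the WT label (SE 0.13) and by 0.65 under the KO label (SE 0.11). The interaction, which is the KO change minus the WT change, was -0.96 (SE 0.18, edgeR adjusted p = 0.0179). Trim12c was the 1 gene of the 8 for which it was called, where 0.133% of all genes were. The interaction was not called without the library labelled WT 2 h replicate 1 (-0.87, edgeR adjusted p = 0.241) or WT 0 h replicate 2 (-0.84, edgeR adjusted p = 0.222). Its value ran from -1.06 to -0.84 and its adjusted p from 0.000381 to 0.241 over 14 alternatives. Reads that mapped to several places, 14 to 17% of all reads, were not assigned to genes, so the level of Trim12c among its close relatives is uncertain.

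Trim26 encodes a ligase of the major histocompatibility region, reported to act on the transcription factor Irf3. It stood at 38.7 and 38.3 CPM in the libraries labelled WT 0 h, at 68.0 and 66.5 in WT 2 h, at 70.5 and 68.1 in KO 0 h and at 127 and 119 in KO 2 h. WT 2 h and KO 0 h were almost level, and the other steps were apart. The KO labels were higher by 0.85 on the log2 scale at 0 h (SE 0.09, edgeR adjusted p = 2.14e-07) and by 0.88 at 2 h (SE 0.08, edgeR adjusted p = 5.54e-08). The 2 h labels were higher by 0.80 under WT (SE 0.09) and by 0.83 under KO (SE 0.08). Between KO 0 h and WT 2 h the difference was 0.04 (SE 0.08, edgeR adjusted p = 0.67), with a 95% interval of -0.13 to 0.22, and it was -0.12 when scaled by library size alone.

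Promoter windows were compared because these genes were higher together under the KO labels. The windows reach from 250 bases before to 50 bases after the annotated start and come from RefSeq on GRCm38.p6, a later build than the mm9 of the counts. They were matched for 8 of the 9 genes, not for Trim14. The interferon-stimulated response element was searched on both strands as GAAA repeated after a gap of any 2 bases, a shorter IRF motif as AANNGAAA on both strands, and the gamma-activated site as TTCNNNGAA, which reads the same on either strand. The full element was found for 3 genes, Trim21, Trim12c and Trim26. Their windows are shown with it in capitals, and that of Trim28, which held none of the 3 motifs, is shown beside them.
Trim21: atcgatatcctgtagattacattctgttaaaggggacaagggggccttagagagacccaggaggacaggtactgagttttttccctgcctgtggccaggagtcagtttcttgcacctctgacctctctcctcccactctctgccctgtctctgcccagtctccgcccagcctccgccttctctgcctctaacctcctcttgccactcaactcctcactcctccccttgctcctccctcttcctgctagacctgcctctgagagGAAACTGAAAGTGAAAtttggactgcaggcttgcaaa
Trim12c: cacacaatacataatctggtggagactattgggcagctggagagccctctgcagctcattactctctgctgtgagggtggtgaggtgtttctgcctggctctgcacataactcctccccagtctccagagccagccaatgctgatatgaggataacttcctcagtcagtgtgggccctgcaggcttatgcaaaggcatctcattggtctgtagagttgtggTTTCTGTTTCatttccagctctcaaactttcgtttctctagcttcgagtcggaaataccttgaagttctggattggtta
Trim26: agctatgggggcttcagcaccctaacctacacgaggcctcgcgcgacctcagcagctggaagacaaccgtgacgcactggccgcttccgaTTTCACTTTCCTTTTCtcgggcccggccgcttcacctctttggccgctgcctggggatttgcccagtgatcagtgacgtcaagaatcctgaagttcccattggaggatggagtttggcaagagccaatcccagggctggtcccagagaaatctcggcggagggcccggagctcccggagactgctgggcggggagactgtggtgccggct
Trim28: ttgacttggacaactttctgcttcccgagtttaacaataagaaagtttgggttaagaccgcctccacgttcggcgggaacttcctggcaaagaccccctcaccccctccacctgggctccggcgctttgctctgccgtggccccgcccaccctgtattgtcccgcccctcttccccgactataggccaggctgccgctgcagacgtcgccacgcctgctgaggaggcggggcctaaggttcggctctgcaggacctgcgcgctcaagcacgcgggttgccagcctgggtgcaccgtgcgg
The windows lie at chr7:102565433-102565732 on the minus strand for Trim21, chr7:104353300-104353599 on the minus strand for Trim12c, chr17:36836896-36837195 on the plus strand for Trim26 and chr7:13023902-13024201 on the plus strand for Trim28. Each is printed along its gene's own strand. In Trim21 and in Trim26 the capitals hold 2 overlapping matches, and in Trim12c 1 match.

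The full element was present in 3.44% of all 32851 windows of this length. The shorter motif lies within the full element and was found for 7 of the 8 genes, those other than Trim28, but also in 23.9% of all windows. The gamma-activated site was in none of the 8 and in 8.30% of all windows. Trim25 and Sp100, which differed between genotype labels by more than Trim26, held the shorter motif without the full element. A match is only a match of letters, and its absence says nothing of bases outside the window.

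Trim56, a ligase reported to take part in cytosolic DNA and RNA sensing, stood at 28.3 and 30.8 CPM in the libraries labelled WT 0 h, at 46.5 and 52.6 in WT 2 h, at 60.7 and 60.8 in KO 0 h and at 94.7 and 82.3 in KO 2 h. No groups overlapped. The KO labels were higher by 1.04 on the log2 scale at 0 h (SE 0.10, edgeR adjusted p = 9.61e-08) and by 0.84 at 2 h (SE 0.10, edgeR adjusted p = 1.66e-06), and the 2 h labels by 0.75 under WT (SE 0.10) and by 0.55 under KO (SE 0.10). The step from WT 2 h to KO 0 h was 0.29 (SE 0.10, edgeR adjusted p = 0.012). This step was not called without the library labelled KO 0 h replicate 1 (edgeR adjusted p = 0.0509) or WT 2 h replicate 1 (edgeR adjusted p = 0.238), nor with library size alone (edgeR adjusted p = 0.253), and its adjusted p ran from 0.0127 to 0.253 over 15 alternatives. After centring each gene on its mean over the 8 libraries, Trim56 and Trim26 were the most alike of the 8 genes, with a root mean square difference of 0.13 in log2 CPM, and Trim21 and Trim28 the least alike, at 1.96.

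Trim25 encodes a ligase studied in human cells as an activator of the RNA sensor RIG-I and a cofactor of the antiviral protein ZAP. It stood at 101 and 105 CPM in the libraries labelled WT 0 h, at 105 and 104 in WT 2 h, at 421 and 465 in KO 0 h and at 523 and 479 in KO 2 h. The WT groups overlapped, and all KO libraries were far above them. The log2 difference between KO and WT labels was 2.10 at 0 h (SE 0.08, edgeR adjusted p = 2.94e-15) and 2.26 at 2 h (SE 0.08, edgeR adjusted p = 6.59e-16). From 0 h to 2 h the WT value was 0.02 (SE 0.08, edgeR adjusted p = 0.828), with a 95% interval of -0.14 to 0.19.

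Under the KO label Trim25 rose by 0.18 from 0 h to 2 h (SE 0.08, edgeR adjusted p = 0.044). This small change was called neither with no filter nor with only the 4 libraries compared (edgeR adjusted p = 0.0657 and 0.0724). The call was also lost without the libraries labelled KO 0 h replicate 1, KO 2 h replicate 1, WT 0 h replicate 1 or WT 0 h replicate 2 (edgeR adjusted p = 0.163, 0.211, 0.0621 and 0.0614), within a range of 0.000841 to 0.211 over 15 alternatives. The interaction of Trim25 was 0.16 (SE 0.11, edgeR adjusted p = 0.568).

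Trim28 ran the other way. It stood at 373 and 378 CPM in the libraries labelled WT 0 h, at 288 and 283 in WT 2 h, at 363 and 331 in KO 0 h and at 285 and 279 in KO 2 h. The libraries labelled 2 h lay below those labelled 0 h, and the KO and WT groups at 2 h overlapped. Trim28 fell from 0 h to 2 h by 0.40 on the log2 scale under the WT label (SE 0.07, edgeR adjusted p = 6.09e-05) and by 0.30 under the KO label (SE 0.07, edgeR adjusted p = 0.00113). The latter was -0.15 with library size alone, a scaling that shifted the all-gene median by 0.15, and was then not called (edgeR adjusted p = 0.0641 in a range of 0.000221 to 0.0641 over 15 alternatives). Between genotype labels Trim28 gave -0.11 at 0 h (SE 0.07, edgeR adjusted p = 0.396) and -0.02 at 2 h (SE 0.07, edgeR adjusted p = 1), with 95% intervals of -0.26 to 0.04 and -0.17 to 0.13.

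Per kilobase of exon, with lengths from GENCODE M21, the level of Trim25 was 17.6 and 18.2 CPM per kilobase in the libraries labelled WT 0 h against 89.8 and 91.0 for Trim28. In those labelled KO 2 h it was 91.0 and 83.3 for Trim25 against 68.6 and 67.0 for Trim28. The order of these levels was thus reversed between the groups, while in KO 0 h the values were 73.2 and 80.8 for Trim25 and 87.4 and 79.7 for Trim28. The lengths come from another annotation than the counts, and levels of different genes were not tested against each other. Of all reads of the 9 genes, Trim28 took 59.7% in both libraries labelled WT 0 h and 20.3 and 21.6% in those labelled KO 2 h. The 9 genes together had 626 and 634 CPM in WT 0 h and 1405 and 1290 in KO 2 h. The share thus reflects the higher levels of other genes as well as the lower level of Trim28.

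Trim14, an adaptor without a RING finger that joins the mitochondrial antiviral protein Mavs, had 3 and 2 reads in the libraries labelled WT 0 h, 0 and 1 in WT 2 h, 1 and 3 in KO 0 h and 1 and 2 in KO 2 h. All were at or under 3 reads, which is what a count of 0 still allows. This limit is 0.138 to 0.210 CPM by library and covers counting error only. A difference between groups was not detectable at this depth.

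**Figure D2:**
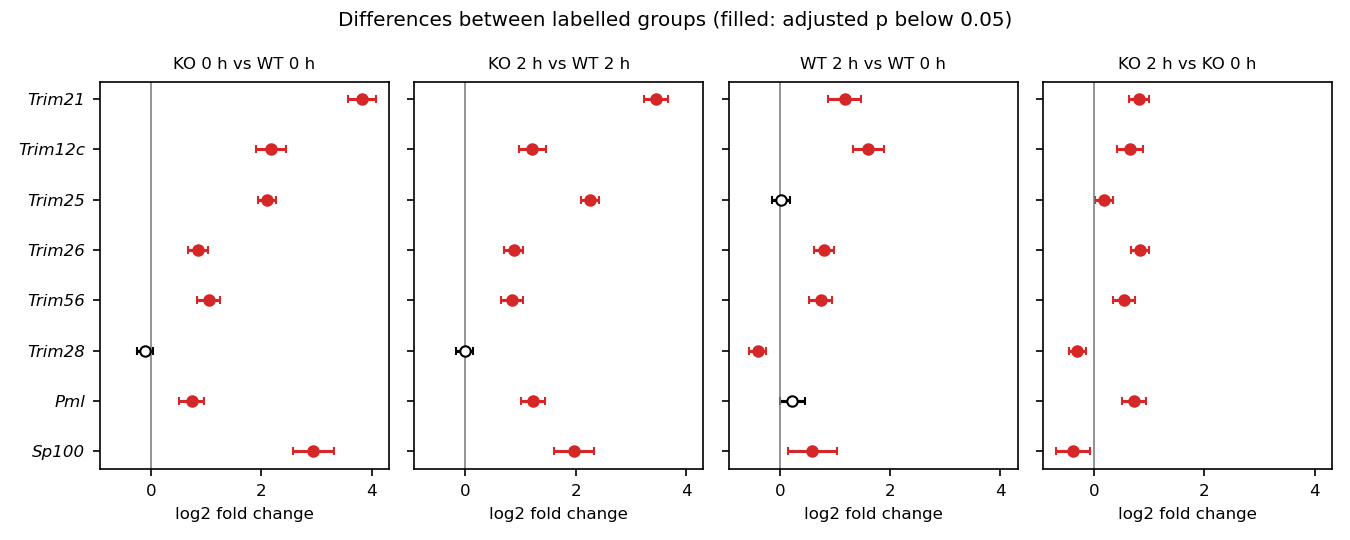
Log2 fold changes of the 8 tested genes (horizontal axis) in 4 comparisons of labelled groups; bars are 95% intervals and filled points have an adjusted p below 0.05. The genotype comparisons reach 3.82 for Trim21, while the time comparisons lie between -0.40 and 1.61.

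Pml, the scaffold of the nuclear bodies, stood at 68.6 and 68.1 CPM in the libraries labelled WT 0 h, at 72.4 and 87.9 in WT 2 h, at 104 and 124 in KO 0 h and at 206 and 169 in KO 2 h. No groups overlapped, and the spread was widest in KO 2 h. The KO labels were higher by 0.73 on the log2 scale at 0 h (SE 0.11, edgeR adjusted p = 8.91e-05) and by 1.23 at 2 h (SE 0.11, edgeR adjusted p = 2.27e-08). Pml rose by 0.72 from 0 h to 2 h under the KO label (SE 0.10, edgeR adjusted p = 3.47e-06).

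Under the WT label the change of Pml was 0.23 (SE 0.11, edgeR adjusted p = 0.0698), with an unadjusted 95% interval of 0.01 to 0.45. It was called with library size alone (0.37, edgeR adjusted p = 0.00664). So it was with no filter (0.22, edgeR adjusted p = 0.0402) and with only the 4 libraries compared (0.24, edgeR adjusted p = 0.0113). It was also called without WT 2 h replicate 1 (0.40, edgeR adjusted p = 0.013) and without KO 0 h replicate 1, KO 0 h replicate 2, KO 2 h replicate 1 or KO 2 h replicate 2 (edgeR adjusted p = 0.0475, 0.0452, 0.0187 and 0.0193). Over 15 alternatives its adjusted p ran from 0.00664 to 0.481. The interaction of Pml was 0.49 (SE 0.15, edgeR adjusted p = 0.217), and it was called with no filter (0.50, edgeR adjusted p = 0.0199).

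Sp100, a nuclear body protein that represses incoming DNA viruses, stood at 3.57 and 2.75 CPM in the libraries labelled WT 0 h, at 5.34 and 4.17 in WT 2 h, at 23.1 and 25.5 in KO 0 h and at 20.6 and 16.4 in KO 2 h. It was the 1 gene of the 8 with its highest level in KO 0 h. The KO labels were higher by 2.94 on the log2 scale at 0 h (SE 0.18, edgeR adjusted p = 2.46e-11) and by 1.97 at 2 h (SE 0.17, edgeR adjusted p = 2.36e-08).

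From 0 h to 2 h Sp100 rose by 0.59 under the WT label (SE 0.21, edgeR adjusted p = 0.0204) and fell by 0.38 under the KO label (SE 0.15, edgeR adjusted p = 0.0304). The test of the difference between these changes was not passed (interaction -0.97, SE 0.26, edgeR adjusted p = 0.161, and 0.038 with no filter). The WT call was lost without the library labelled WT 2 h replicate 1 (edgeR adjusted p = 0.179) or WT 0 h replicate 2 (edgeR adjusted p = 0.201). The KO call was lost without KO 0 h replicate 2 (edgeR adjusted p = 0.133) or KO 2 h replicate 2 (edgeR adjusted p = 0.291), with library size alone (edgeR adjusted p = 0.188) and with DESeq2 (adjusted p = 0.131). Over 15 alternatives each, the adjusted p ran from 0.00591 to 0.201 and from 0.0141 to 0.291. Mouse chromosome 1 carries repeated copies related to Sp100, so its count is uncertain.

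**Figure D3:**
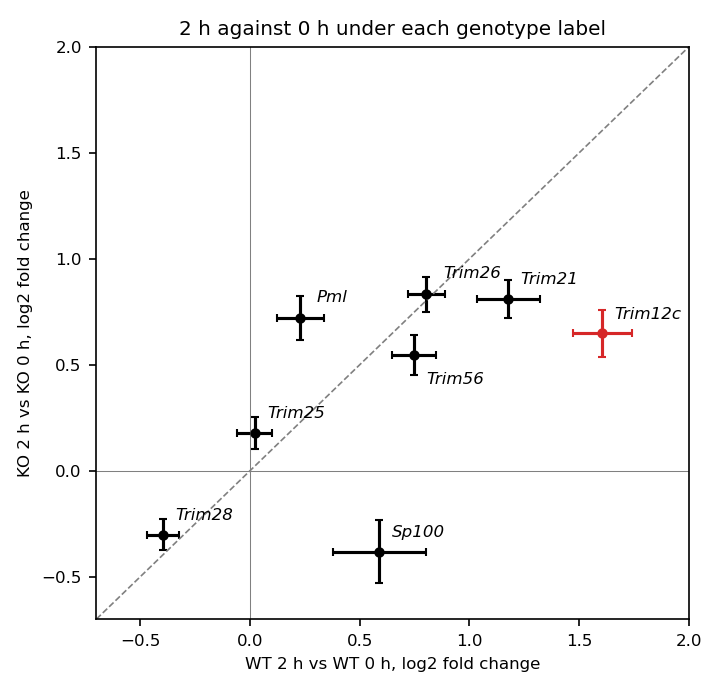
Log2 fold change from 0 h to 2 h under the WT label (horizontal axis) against that under the KO label (vertical axis) for the 8 tested genes, with SE bars and the line of equal change. Trim12c (red), at 1.61 and 0.65, is the gene whose difference between the labels was called, and Sp100 has changes of opposite sign.

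The groups that differ in both labels serve only to order the levels. Under the label KO 0 h, 7 of the 8 genes were higher than under WT 2 h and Trim26 was not called, where 31.5% of all genes were called higher. Under KO 2 h, 7 were higher than under WT 0 h and Trim28 was lower, where 30.8% of all genes were called higher and 31.4% lower.

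Other genes of the TRIM family were examined as every further Trim row of the files with Mid1 and Mid2, 61 in all, of which 38 could be tested. For KO 0 h against WT 0 h, 2.65% of all genes were higher and 1.27% lower. Of the 38, 5 were higher, 1 was lower and 32 were not called, with a median log2 fold change of 0.06. Trim34a, Trim34b, Trim30a and Trim30d, neighbours of Trim12c on chromosome 7, were 4 of the 5. Trim30a, a negative regulator of NF-kB signalling in mouse, had 22.9 ± 1.33 CPM under WT 0 h against 132 ± 24.7 under KO 0 h (mean ± SD, n = 2 each), a log2 fold change of 2.53 (SE 0.12). Trim30d gave 1.80 (SE 0.13), Trim34a 3.31 (SE 0.49) and Trim34b 3.30 (SE 0.51). Under WT 0 h Trim34a had only 5 and 9 reads and Trim34b 6 and 3, so the size of their differences is uncertain. Trim34a had 4 to 14 reads in the WT libraries and passed the filter on low counts only through the KO libraries, where it was high. Its calls between genotype labels, at 0 h and at 2 h, are thus not separate from the filter. As for Trim12c, reads that mapped to several places were not assigned to these 4 related genes. Trim59, the fifth, and Trim47, the lower one, are named because they completed the count: they gave 0.32 (SE 0.08, edgeR adjusted p = 0.037) and -0.32 (SE 0.09, edgeR adjusted p = 0.0436).

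The largest values among the other genes of the family that were not called belonged to the pseudogene Trim30e-ps1 (4.07, SE 1.17, edgeR adjusted p = 0.0518) and to Trim15 (2.83, SE 1.0, edgeR adjusted p = 0.111), both low in reads. Both passed the filter on low counts only through KO libraries, so their values are not separate from the filter. Within the chromosome 7 cluster, Trim12a had 1 to 3 reads and Trim30b 0 to 4 in each library and were not tested. For KO 2 h against WT 2 h, 1.59% of all genes were called higher and 1 gene of 12807 lower. Among the 38, 5 were higher and none lower. They were the same 4 neighbours and Trim6, also of the cluster and named to complete the count, at 1.25 ± 0.438 CPM in WT 2 h and 3.82 ± 0.0558 in KO 2 h (1.60, SE 0.32, edgeR adjusted p = 0.0047). The 2 h labels had 14 of the 38 higher and 6 lower under either genotype label, which is to be read against the shares of all genes given above.

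**Figure D4:**
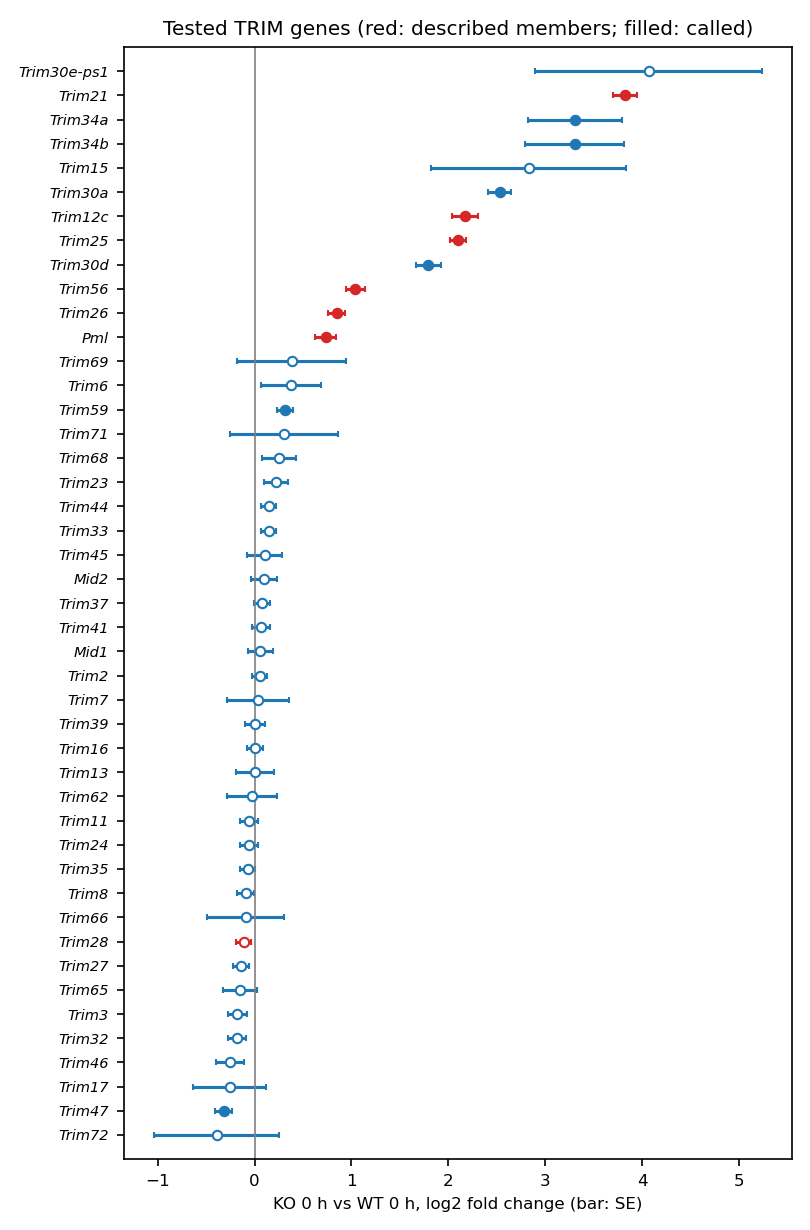
Log2 fold change of KO 0 h against WT 0 h (horizontal axis) for the tested genes of the TRIM family, Pml included, sorted; bars are SE, red marks the described genes and filled points were called. Most of the family lies near 0, with Trim21 at 3.82 and the chromosome 7 genes Trim34a, Trim34b, Trim30a and Trim30d between 1.80 and 3.31, and the low Trim30e-ps1 at 4.07 was not called. Trim34a, Trim30e-ps1 and Trim15 passed the filter on low counts only through KO libraries.

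Of 18 partners of the nuclear bodies, all tested, 4 were higher in KO 0 h than in WT 0 h and none was lower (median 0.17). Among all genes 2.65% were higher and 1.27% lower. Daxx, a histone H3.3 chaperone, rose from 24.9 ± 0.344 to 90.1 ± 1.30 CPM (1.86, SE 0.09), and Sp110 and Sp140, relatives of Sp100, rose by 1.28 (SE 0.17) and 1.09 (SE 0.14). Atrx, the chromatin remodeller that works with Daxx, rose by 0.29 (SE 0.08, edgeR adjusted p = 0.0468). For KO 2 h against WT 2 h 3 were higher and none was lower (median -0.04), where 1.59% of all genes were higher and 1 gene of 12807 lower. The 3 were Daxx at 2.01 (SE 0.08), Sp110 at 1.69 (SE 0.17) and Sp140 at 1.09 (SE 0.14). Sumo2, a small modifier, gave 0.65 between the labels at 0 h (SE 0.55, edgeR adjusted p = 0.533). Comparing 2 h with 0 h, 5 were higher and 7 lower under the WT label and 5 and 6 under the KO label, where 30.1% and 31.1% of all genes were called higher and lower under WT and 30.0% and 31.2% under KO. Under WT the 12 calls fell to 7 without WT 0 h replicate 1. Daxx rose by 0.75 (SE 0.09) and 0.90 (SE 0.08), and Atrx fell by 0.57 (SE 0.08) and 0.93 (SE 0.08).

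Of 13 partners of Trim28 in silencing, 1 was higher in KO 0 h than in WT 0 h and none was lower (median 0.12). It was the histone deacetylase gene Hdac2 (0.32, SE 0.09, edgeR adjusted p = 0.041). Among all genes 2.65% were higher and 1.27% lower. The count of 1 fell to 0 with RLE scaling, with a replicate block and without WT 0 h replicate 1 or WT 0 h replicate 2, and was 2 with no filter and with only the 4 libraries compared. None was called between the labels at 2 h by edgeR (median -0.03, edgeR adjusted p = 1 for Hdac2 and for Cbx5), and 1 was without KO 0 h replicate 1 or KO 0 h replicate 2. Among all genes 1.59% were higher in KO 2 h than in WT 2 h and 1 gene of 12807 was lower. With time, 6 of the 13 were higher and 5 lower under WT and 4 and 5 under KO. Beside these stand the same 30.1% and 31.1% and the same 30.0% and 31.2% of all genes. Under WT the calls fell to 7 without WT 0 h replicate 1 or WT 2 h replicate 1 and to 6 without WT 0 h replicate 2. Cbx5, which encodes the heterochromatin protein HP1 alpha, fell from 786 ± 25.3 to 403 ± 12.7 CPM under the WT label (-0.96, SE 0.07) and from 866 ± 4.31 to 399 ± 26.7 under the KO label (-1.12, SE 0.07). Trim24 and Trim33 belong to this list and to the family list.

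Of 12 tested genes listed as partners of the ligases in nucleic acid sensing, 4 were higher in KO 0 h than in WT 0 h and none lower (median 0.24). Among all genes 2.65% were higher and 1.27% lower. The RNA sensor gene Ddx58 rose from 19.1 ± 2.59 to 165 ± 24.4 CPM (3.11, SE 0.11) and Irf7, a transcription factor for interferon genes, by 3.10 (SE 0.24). Zc3hav1, the gene of ZAP, rose by 1.06 (SE 0.09) and the DNA sensor gene Mb21d1 by 0.68 (SE 0.11). At 2 h 1.59% of all genes were higher in KO and 1 gene of 12807 was lower. The same number of the sensing genes, 4, were higher there and none lower (median 0.25). At 2 h against 0 h, 6 were higher and 3 lower under WT and 5 and 3 under KO, again beside 30.1% and 31.1% and beside 30.0% and 31.2% of all genes. Mb21d1 fell by 1.40 (SE 0.12) and 1.26 (SE 0.12). The adaptor gene Mavs gave -0.33 between the labels at 0 h (SE 0.12, edgeR adjusted p = 0.108).

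Stat2 and Irf9 were higher in KO at 0 h and at 2 h. Stat2 gave 3.93 (SE 0.10) at 0 h and 3.57 (SE 0.09) at 2 h. Irf9 gave 3.17 (SE 0.12) and 2.42 (SE 0.11). From 0 h to 2 h both rose under both genotype labels, by 0.93 (SE 0.10) and 1.08 (SE 0.13) under WT and by 0.57 (SE 0.08) and 0.33 (SE 0.10) under KO.

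Genes with the most similar profiles were sought among 11552 tested genes of at least 1 CPM, as the smallest root mean square difference in centred log2 CPM over the 8 libraries. The nearest to Trim21 were Dtx3l, a ubiquitin ligase, at 0.09 and Stat2 at 0.15. The nearest to Trim25 was Tap1, a peptide transporter, at 0.14, followed by Eif2ak2, the kinase PKR, at 0.17. Psmb9, an immunoproteasome subunit, was nearest to Trim12c at 0.21. Tcirg1, a proton pump subunit, was nearest both to Trim56, at 0.08, and to Pml, at 0.14, and Dcp2, an mRNA decapping enzyme, was nearest to Trim26 at 0.12. Sp100 had no close match, with AW011738 at 0.26 and Trim25 next at 0.34. Cirh1a was nearest to Trim28 at 0.02. A profile with small differences lies near many genes, so these distances are smaller for Trim28 than for Trim21 by construction.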

How the data were processed

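TRIzol extraction and paired-end sequencing on a HiSeq instrument were used, per the labels' protocols. The authors deposited raw counts, 1 whole number of reads per gene symbol and library. The mm9 build and the tools STAR 2.5.2b, HTSeq and bcl2fastq 2.15 are named, without roles, per the submitters' processing notes. The sources used here give neither annotation nor strand setting, so overlapping and antisense genes cannot be told apart. The 4 summary lines (unmapped, several places, no gene, several genes) took 36.9 to 43.2% of reads and were left out.

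Counts were analysed in R 4.3.3 with edgeR 4.0.16: filterByExpr (minimum count 10, total 15), TMM scaling and 1 robust quasi-likelihood fit with a coefficient per group, 4 residual degrees of freedom and a biological coefficient of variation of 6.74%. There were 7 comparisons, of all pairs of groups and the interaction. Intervals at 95% take SE times a t quantile with 22.1 degrees of freedom and cover single genes without adjustment. Log2 CPM for profiles used a prior count of 2. Named genes were the 9 genes, Zmynd11, the 6 of each list with the largest difference between KO 0 h and WT 0 h, and up to 3 nearest genes. The members and lists were chosen with earlier results of these data known. The fit was tested on simulated data. Alternatives were RLE, library size alone, DESeq2 1.42.0, other filters, fits of 4 libraries, a replicate block and leaving out each library, where the spread of a library left alone in its group was taken from the other groups. Some genes of the lists are not reported here.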

Additional observations from a re-analysis of the deposited data

Results flagged for a closer look

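The change of Trim12c from 0 h to 2 h differed between the genotype labels by a test of that difference: it was 1.61 on the log2 scale under the WT label and 0.65 under the KO label, an interaction of -0.96 (SE 0.18, edgeR adjusted p = 0.0179). Without the library labelled WT 2 h replicate 1 or WT 0 h replicate 2 the interaction was about as large, -0.87 and -0.84, but was not called (edgeR adjusted p = 0.241 and 0.222). Both libraries of each 2 h group lay above both of the matching 0 h group.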

How the results depend on the processing

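Of 832 values of the 8 genes under alternatives, 797 kept their direction and their side of the threshold, 20 lost a call, 10 gained one and 5 changed sign, and 43 of 56 pairs of gene and comparison changed under none. The sign changes were all of values that were not called: Trim26 between KO 0 h and WT 2 h gave -0.12 with library size alone and -0.00999 to 0.0682 on leaving out a library. On leaving out a library its interaction ran from -0.0303 to 0.0928, and the WT change of Trim25 from -0.0145 to 0.0606. The genes called in the interaction were 1 in the main analysis, 3 with no filter and 0 to 1 on leaving out a library. Between KO 0 h and WT 0 h, 502 of all genes were called, 809 with no filter and 174 to 1073 on leaving out a library. In the interaction these numbers were 17, 113 and 6 to 91, and 32 with DESeq2. With a replicate block, 322 genes were called between KO 0 h and WT 0 h, and Trim25 between KO 2 h and KO 0 h was not (edgeR adjusted p = 0.0734). The labels do not say that a replicate number marks a shared batch, and differences between replicates 1 and 2 correlated between groups by -0.05 to -0.01 across genes, which are not independent. The cause of these changes was not tested. Depth limited Trim14, at 0 to 3 reads per library.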
